A study of Mus musculus with 8 samples.

Results

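The genes described here are targets of the transcription factor NRF2 together with other antioxidant enzymes, followed across 4 groups of primary mouse hepatocytes. The list names 35 genes, and each gene was read from the probe set whose platform annotation carries its symbol, taking the brightest where several did. Of these, 32 were among the 19937 genes tested, and Ggt1, Prdx6 and G6pdx were not analysed here. No filter on low signal was applied, so no gene was left out for being dim. Total RNA was hybridised to 8 whole-transcript arrays, 2 in each group, and the values are log2 signal intensities as the authors normalized them.

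All cells were hepatocytes of male BALB/c mice, isolated by collagenase digestion and a Percoll gradient and transduced with a lentivirus carrying a short hairpin RNA (shRNA). The combined group came from HO1-/- mice, which lack heme oxygenase 1, and received shRNA against HO2, the transcript of heme oxygenase 2. The HO1 knockout group came from HO1-/- mice and received a scrambled shRNA. The HO2 knockdown group came from HO1+/+ mice and received the HO2 shRNA, and the control group came from HO1+/+ mice and received the scrambled shRNA. All 4 groups thus share the viral transduction, 3 days of puromycin selection, and a pulse of 1 µM dexamethasone for 30 min with harvest 28 h later. The labels name 1 HO2 hairpin and give no age, and they call the replicates biological without saying which animals or cultures they came from. The p-values describe the spread between these arrays.

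Heme oxygenases split heme into carbon monoxide, iron and biliverdin. Heme and oxidants both act on the genes described here. NRF2, encoded by Nfe2l2, is held in the cytoplasm and marked for degradation by KEAP1, and oxidants or electrophiles release it. It then pairs with small MAF proteins on antioxidant response elements, DNA motifs that the heme-binding repressor BACH1 also occupies. Its targets make glutathione, regenerate thioredoxin and peroxiredoxins, supply NADPH and detoxify quinones and carbonyls. The liver holds high levels of these enzymes, because hepatocytes handle many reactive compounds. Catalase, the superoxide dismutases and most glutathione peroxidases remove superoxide and peroxides and depend less on NRF2.

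The labels were checked first on the targeted transcripts. Hmox2, which encodes heme oxygenase 2, had a log2 signal of 9.29 ± 0.044 in combined, 11.60 ± 0.0012 in HO1 knockout and 8.35 ± 0.043 in HO2 knockdown, against 11.49 ± 0.11 in control (SD, n = 2 each). Hmox1, itself an NRF2 target, had 12.44 ± 0.048 in combined, 11.97 ± 0.0082 in HO1 knockout and 11.55 ± 0.028 in HO2 knockdown, against 11.43 ± 0.046 in control (SD, n = 2 each). The arrays labelled HO1-/- did not show less Hmox1, and each lay above every HO1+/+ array. Against control its log2 fold change was 1.01 in combined and 0.54 in HO1 knockout. The part of the gene removed in these mice is not given in the sources used here, so every direction given for HO1 rests on the labels. Between replicate arrays, Pearson's r over all genes was 0.997 to 0.999. A marker counts as higher or lower here at an adjusted p under 0.05 in the test described below. Of all genes, 5.62% were higher and 7.20% lower in HO1 knockout than in control. In HO2 knockdown these shares were 16.5% and 16.7%, and in combined 11.6% and 18.3%. Of 20 Kupffer cell and macrophage markers, 15 were higher and 1 lower in HO1 knockout than in control (median log2 fold change 2.20). Their summed linear signal ranged from 41916 to 44087 in combined, 43405 to 44037 in HO1 knockout and 7791 to 8109 in HO2 knockdown, against 9093 to 9603 in control. Of 22 hepatocyte identity markers, 20 were higher and 1 lower in HO2 knockdown than in control (median 0.98). Their sum ranged from 129894 to 132875 in combined, 82710 to 83250 in HO1 knockout and 122703 to 126368 in HO2 knockdown, against 67595 to 68829 in control. Of 19 stellate cell and fibroblast markers, 0 were higher and 10 lower in HO1 knockout than in control (median -0.33). In HO2 knockdown 5 of them were higher and 5 lower, and in combined 3 were higher and 7 lower. Summed signal of 12 neutrophil markers was 2078 to 2096 in combined, 3562 to 3621 in HO1 knockout and 870 to 874 in HO2 knockdown, against 977 to 1034 in control. That of 16 sinusoidal endothelial markers was 6816 to 7190 in combined, 6388 to 6495 in HO1 knockout and 4684 to 4768 in HO2 knockdown, against 4058 to 4157 in control. For 7 cholangiocyte markers it was 12996 to 13479, 10968 to 11122 and 13674 to 13682 in these groups, against 12265 to 12651 in control. The part of these marker changes in the results below was not tested. In bulk RNA, a change in the number of cells of a type and a change in RNA per cell cannot be told apart.

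Promoter sequences are shown for 4 genes, the 3 whose promoter holds a full antioxidant response motif and Gpx3, the gene with the largest change. The windows run from 250 bases before to 50 bases after an annotated transcript start and come from RefSeq on build GRCm38.p6. Of the 32 genes, 29 matched by gene ID. The motif TGANTCAGC was searched on both strands and found in 3 of these 29 genes (10.3%), Srxn1, Osgin1 and Prdx1, against 1.37% of the 27025 genes in the promoter table. The looser core TGACNNNGC, which overlaps TGANTCAGC where the fourth base is C, was found in 8 of the 29 (27.6%), Nfe2l2, Mafg, Gclm, Txnrd1, Srxn1, Prdx1, Pgd and Sod1, against 14% of genes. Capitals mark matches to either motif. The Srxn1 window holds TGAGTCAGC 45 bases before the start. The Osgin1 and Prdx1 windows hold the motif on the other strand, as GCTGACTCA 99 bases and GCTGAGTCA 133 bases before the start. The Gpx3 window held neither. A match is a sequence description and does not show binding. The 4 windows lie at chr2:152105274-152105573 (plus strand), chr8:119436897-119437196 (plus strand), chr4:116685349-116685648 (plus strand) and chr11:54902604-54902903 (plus strand).
Srxn1: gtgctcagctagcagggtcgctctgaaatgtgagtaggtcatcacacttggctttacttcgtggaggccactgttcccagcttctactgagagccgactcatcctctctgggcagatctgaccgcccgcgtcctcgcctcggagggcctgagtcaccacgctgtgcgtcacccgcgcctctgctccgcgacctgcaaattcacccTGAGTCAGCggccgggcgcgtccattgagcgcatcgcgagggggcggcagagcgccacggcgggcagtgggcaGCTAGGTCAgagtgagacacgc
Osgin1: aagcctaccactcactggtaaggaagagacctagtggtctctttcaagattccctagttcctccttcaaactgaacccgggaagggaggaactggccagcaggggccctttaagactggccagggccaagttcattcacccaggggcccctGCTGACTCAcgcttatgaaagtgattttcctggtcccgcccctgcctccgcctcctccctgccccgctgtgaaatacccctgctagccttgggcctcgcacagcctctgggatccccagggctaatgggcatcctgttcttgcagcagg
Prdx1: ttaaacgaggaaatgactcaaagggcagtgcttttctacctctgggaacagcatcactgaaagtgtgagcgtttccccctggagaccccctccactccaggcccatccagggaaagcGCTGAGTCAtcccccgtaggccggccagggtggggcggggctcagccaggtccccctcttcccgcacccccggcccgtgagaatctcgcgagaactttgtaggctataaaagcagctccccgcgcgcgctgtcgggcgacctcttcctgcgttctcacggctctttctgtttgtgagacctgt
Gpx3: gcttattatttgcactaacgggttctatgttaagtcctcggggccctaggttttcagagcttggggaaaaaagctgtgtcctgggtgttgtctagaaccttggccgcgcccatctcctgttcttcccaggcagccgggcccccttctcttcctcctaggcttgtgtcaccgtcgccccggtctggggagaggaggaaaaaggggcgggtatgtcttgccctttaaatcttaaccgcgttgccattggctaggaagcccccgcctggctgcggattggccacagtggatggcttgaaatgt

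The question put to each comparison was which antioxidant transcripts differ when 1 or both heme oxygenases are perturbed. A gene was called where limma, fitted over all 8 arrays, gave an adjusted p under 0.05 after Benjamini-Hochberg correction over all genes. In combined against control 16 of 32 were called, 4 higher and 12 lower, where 29.9% of all genes were called (11.6% higher and 18.3% lower). In HO1 knockout against control 9 of 32 were called, 1 higher and 8 lower, where 12.8% of all genes were called (5.62% higher and 7.20% lower). In HO2 knockdown against control 16 of 32 were called, 6 higher and 10 lower, where 33.2% of all genes were called (16.5% higher and 16.7% lower). With arrays centred on their medians that split became 11 higher and 8 lower. All genes moved the same way, with 62.9% of all calls higher after centring and 49.7% as deposited. Of the calls among the 32 genes, 57.9% were higher after centring and 37.5% as deposited. A further quantile normalization gave 7 higher and 10 lower, so the balance in HO2 knockdown rests on the scaling chosen. These 3 comparisons share the control arrays. The shares over all genes include dim genes, while most of the 32 lay above the array medians of 7.61 to 7.70. With the dimmest 25% of genes left out, 5980, 2653 and 6501 genes were called in combined, HO1 knockout and HO2 knockdown. With all genes these were 5964, 2557 and 6620, so brighter genes were called more often. The part of brightness in the shares given here and below was not tested.

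The set did not move as a block. Its median log2 fold change was -0.078 in combined, -0.062 in HO1 knockout and -0.025 in HO2 knockdown, beside -0.019, -0.041 and -0.066 for all genes tested. Single genes ranged from -0.82 (Nqo1) to 1.09 (Gpx3) in combined, from -0.62 (Aox1) to 0.67 (Gpx3) in HO1 knockout and from -0.61 (Slc7a11) to 1.35 (Gpx3) in HO2 knockdown. Standard errors of these log2 fold changes lay between 0.035 and 0.12. Array background compresses fold changes, most of all for dim genes. For 7 of the 32 genes, Keap1, Mafg, Txn1, Prdx1, Tkt, Gpx2 and Gpx4, none of the 5 pairwise comparisons made was called (HO1 knockout was not set against HO2 knockdown). The same share over all genes was not counted. Prdx1 was called in combined, against control and against HO1 knockout, on its dimmer probe set. Txn1 lay near the threshold in HO2 knockdown against control (adjusted p = 0.0537).

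**Figure D1:**
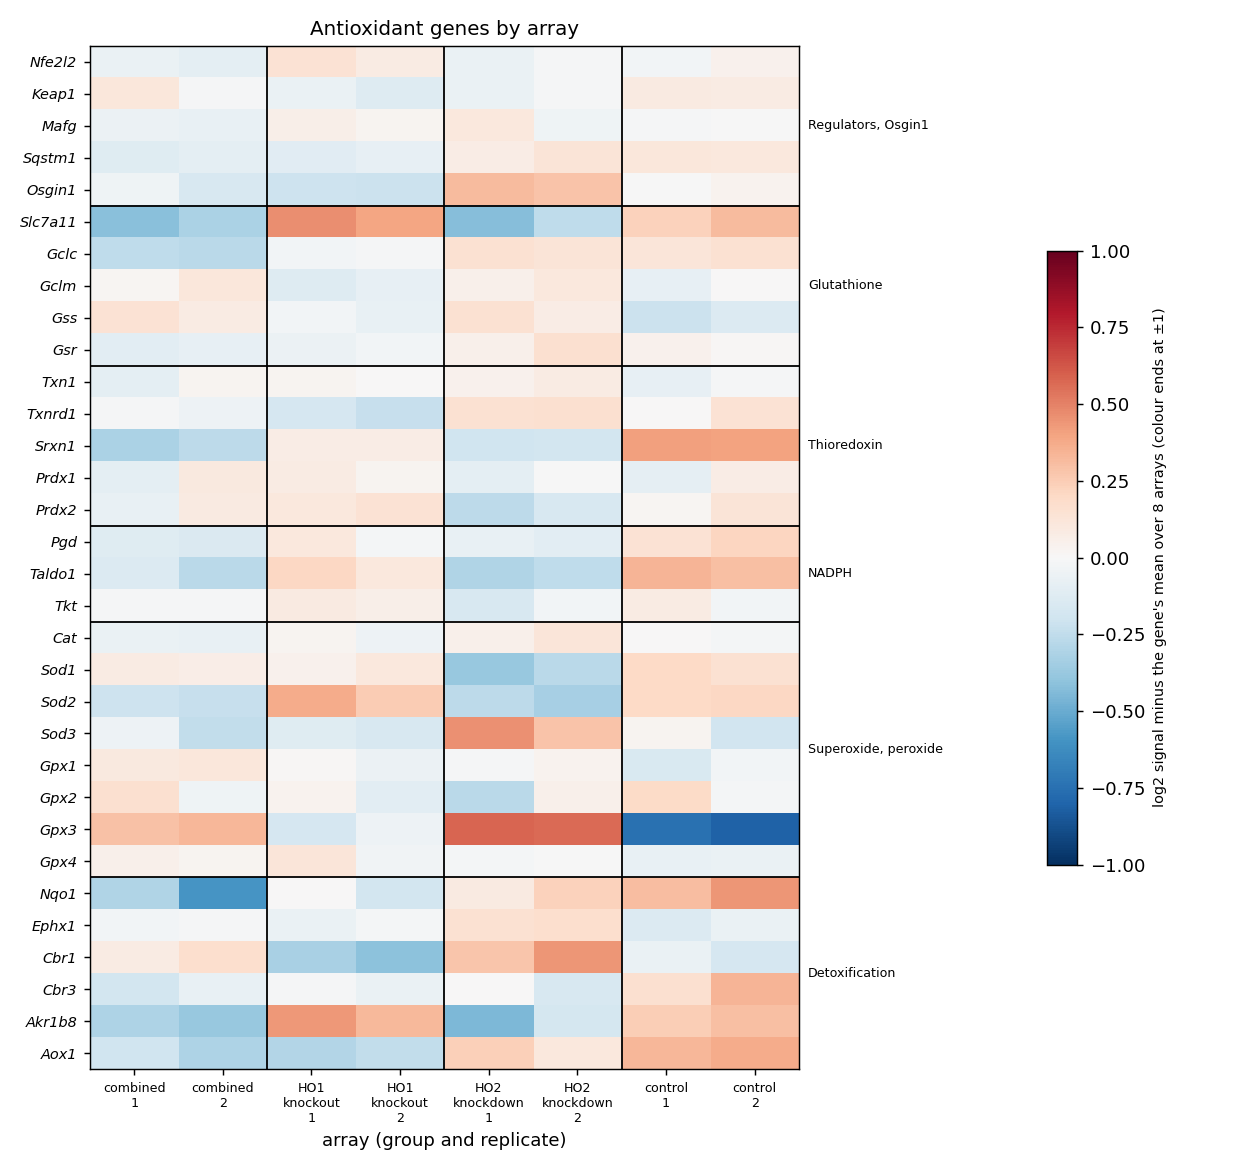
Log2 signal of each of the 32 analysed genes on each of the 8 arrays, given as the difference from that gene's mean over the arrays, with genes in rows grouped by role and arrays in columns by group and replicate. Gpx3 is high in both HO2 knockdown arrays and low in both control arrays, and Srxn1 is highest in control.

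**Figure D2:**
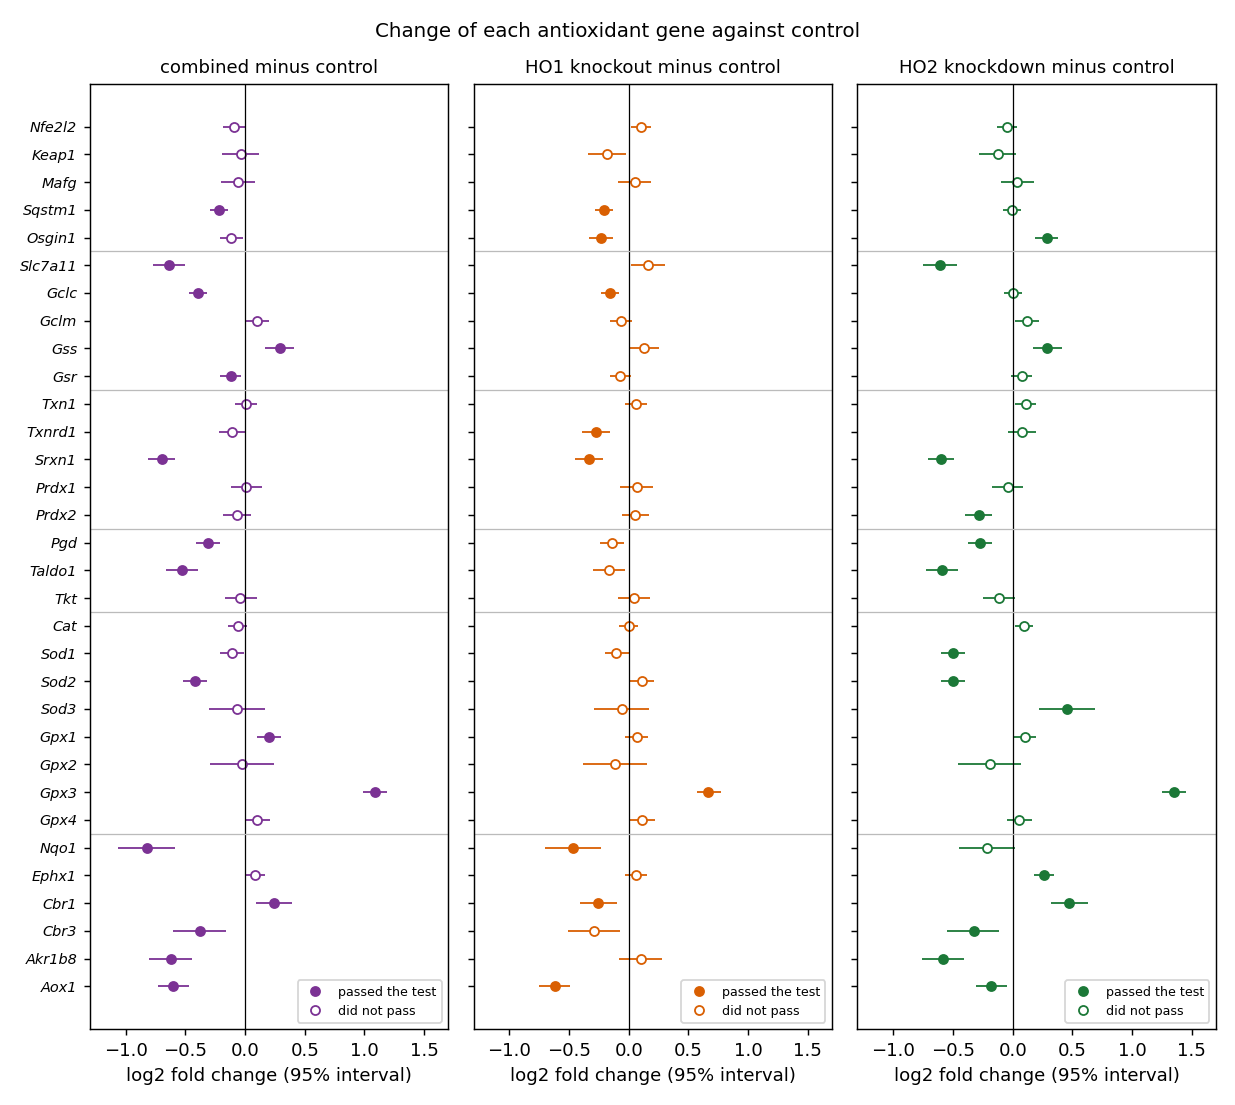
Log2 fold change of each gene in combined, HO1 knockout and HO2 knockdown against control, with bars for the 95% interval from limma and filled points for genes that passed the test (n = 2 arrays a group). Gpx3 lies to the right of 0 in all 3 panels and Srxn1 to the left.

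Among the 5 genes grouped as regulators, Nfe2l2, Keap1 and Mafg were not called against control, Sqstm1 was lower in HO1-/- cells, and Osgin1 went opposite ways in HO1 knockout and HO2 knockdown. Nfe2l2 had log2 signals of 13.00 and 12.96 in combined, 13.20 and 13.14 in HO1 knockout and 12.99 and 13.05 in HO2 knockdown, against 13.03 and 13.10 in control. Against control its log2 fold changes were -0.091, 0.10 and -0.045 in these groups and did not pass, with 95% intervals of -0.18 to 0.00, 0.02 to 0.19 and -0.13 to 0.04. In HO1-/- cells it was lower with HO2 shRNA, at -0.19 (SE 0.041, adjusted p = 0.00213), and the call was lost without the mean-variance trend (adjusted p = 0.0708). Keap1, which encodes the protein that retains NRF2, had 9.20 and 9.07 in combined, 9.02 and 8.96 in HO1 knockout and 9.02 and 9.07 in HO2 knockdown, against 9.18 and 9.17 in control. Its arrays in both HO1 knockout and HO2 knockdown lay below control, but its log2 fold changes of -0.18 and -0.13 did not pass (adjusted p = 0.141 and 0.212). Mafg, a small MAF partner of NRF2, stayed within 0.061 of control on the log2 scale in all 3 groups and was not called.

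Sqstm1 encodes p62, which binds KEAP1 and carries it to autophagy, and it followed the HO1 genotype. Its log2 signals were 13.28 and 13.31 in combined, 13.29 and 13.32 in HO1 knockout and 13.47 and 13.53 in HO2 knockdown, against 13.52 and 13.50 in control. All 4 HO1-/- arrays lay below all 4 HO1+/+ arrays. It fell with a log2 fold change of -0.22 in combined (SE 0.036, adjusted p = 0.000166) and of -0.21 in HO1 knockout (SE 0.036, adjusted p = 0.000713), and had -0.0084 in HO2 knockdown. Without the mean-variance trend the HO1 knockout value no longer passed (adjusted p = 0.0733).

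Osgin1, an oxidative stress-induced growth inhibitor gene and NRF2 target, had 12.04 and 11.92 in combined, 11.87 and 11.86 in HO1 knockout and 12.40 and 12.37 in HO2 knockdown, against 12.08 and 12.12 in control. Both HO2 knockdown arrays lay above control and both HO1 knockout arrays below it. Its log2 fold change was 0.28 in HO2 knockdown (SE 0.046, adjusted p = 0.000175) and -0.23 in HO1 knockout (SE 0.046, adjusted p = 0.00301), and without the mean-variance trend the HO1 knockout value did not pass (adjusted p = 0.0667). Under HO2 shRNA the genotype difference, combined minus HO2 knockdown, was -0.40 (SE 0.046, adjusted p = 9.71e-06).

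The genes of glutathione synthesis did not move together. Slc7a11 fell with HO2 shRNA, Gclc fell in HO1-/- cells and Gss rose with HO2 shRNA, with less support in HO1-/- cells. Of the 5 analysed, 1 was higher and 3 lower in combined against control. In HO1 knockout 0 were higher and 1 lower, and in HO2 knockdown 1 was higher and 1 lower. The shares called were 80%, 20% and 40%, where those of all genes were 29.9%, 12.8% and 33.2%. Slc7a11, the cystine importer that feeds cysteine into glutathione, had 10.49 and 10.59 in combined, 11.37 and 11.30 in HO1 knockout and 10.48 and 10.65 in HO2 knockdown, against 11.13 and 11.22 in control. The 4 arrays with HO2 shRNA lay below all 4 with scrambled shRNA. Its log2 fold change was -0.64 in combined (SE 0.064, adjusted p = 1.07e-06) and -0.61 in HO2 knockdown (SE 0.064, adjusted p = 1.94e-06), to 64.4% and 65.5% of control on the linear scale. In HO1 knockout its value of 0.16 did not pass (adjusted p = 0.132).

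Gclc, the catalytic subunit of glutamate-cysteine ligase and the rate-limiting step of glutathione synthesis, was lowest in the combined arrays. It had 12.96 and 12.94 in combined, 13.19 and 13.20 in HO1 knockout and 13.37 and 13.34 in HO2 knockdown, against 13.34 and 13.36 in control. The combined arrays lay below the HO1 knockout arrays, which lay below the others, while HO2 knockdown and control overlapped. The log2 fold change against control was -0.40 in combined (SE 0.035, adjusted p = 2.31e-07) and -0.15 in HO1 knockout (SE 0.035, adjusted p = 0.00738), and 0.0073 in HO2 knockdown. The HO1 knockout value did not pass without control replicate 2 (-0.14, adjusted p = 0.0643) or without the mean-variance trend (adjusted p = 0.173). In every fit that left out an array, a group reduced to 1 array was assumed to vary like the other groups.

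The other glutathione genes differed less. Gclm, the modifier subunit of the same ligase, had 12.72 and 12.82 in combined, 12.58 and 12.63 in HO1 knockout and 12.76 and 12.82 in HO2 knockdown, against 12.63 and 12.71 in control, and was not called against control. So the 2 subunits of this enzyme differed, with Gclc at -0.40 and Gclm at 0.10 on the log2 scale in combined. Gss, glutathione synthetase, had 10.73 and 10.68 in combined, 10.56 and 10.52 in HO1 knockout and 10.74 and 10.66 in HO2 knockdown, against 10.38 and 10.45 in control. It rose by 0.29 in combined (SE 0.057, adjusted p = 0.000868) and by 0.29 in HO2 knockdown (SE 0.057, adjusted p = 0.000932). Within HO1-/- cells, combined minus HO1 knockout, Gss was at 0.17 (adjusted p = 0.0483). That value did not pass without the mean-variance trend (adjusted p = 0.128) or with arrays centred on medians (adjusted p = 0.0527). Gsr, which regenerates reduced glutathione, had 12.87 and 12.90 in combined, 12.92 and 12.95 in HO1 knockout and 13.03 and 13.13 in HO2 knockdown, against 13.02 and 12.99 in control. Its fall of -0.12 in combined (adjusted p = 0.0375) did not pass without either control array (adjusted p = 0.141 and 0.0756 without replicates 1 and 2) or either combined array (adjusted p = 0.182 and 0.11). The value for combined minus HO2 knockdown, -0.20, passed in every alternative run (SE 0.041, adjusted p = 0.00191).

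In the thioredoxin group Srxn1 fell in every perturbed group, and thioredoxin itself was near the threshold in HO2 knockdown. Srxn1, sulfiredoxin, which repairs overoxidised peroxiredoxins, had 10.37 and 10.43 in combined, 10.76 and 10.76 in HO1 knockout and 10.49 and 10.51 in HO2 knockdown, against 11.10 and 11.10 in control. All 6 arrays of the perturbed groups lay below control, and replicates differed far less than groups. Its log2 fold change was -0.70 in combined (SE 0.052, adjusted p = 3.26e-08), -0.34 in HO1 knockout (adjusted p = 0.00029) and -0.60 in HO2 knockdown (adjusted p = 2.79e-07), which is 61.7%, 79.2% and 66.1% of control on the linear scale. All 3 calls passed in each of the 16 alternatives. Its promoter carries the full motif shown above. Osgin1 and Prdx1 carry it too. Osgin1 rose in HO2 knockdown (0.28) and fell in HO1 knockout (-0.23). Prdx1 was not called on its brighter probe set, and its dimmer probe set was at -0.19 in combined against control. Any part of the motif in these values was not tested.

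Txnrd1, thioredoxin reductase, was lower in HO1 knockout and not in HO2 knockdown. It had 11.27 and 11.23 in combined, 11.11 and 11.05 in HO1 knockout and 11.43 and 11.44 in HO2 knockdown, against 11.28 and 11.43 in control. Its log2 fold change in HO1 knockout was -0.27 (SE 0.055, adjusted p = 0.00264), and its values of -0.11 in combined and 0.079 in HO2 knockdown did not pass. Txn1, thioredoxin, had 13.83 and 13.96 in combined, 13.96 and 13.94 in HO1 knockout and 13.98 and 14.01 in HO2 knockdown, against 13.85 and 13.92 in control, and its log2 fold change of 0.11 in HO2 knockdown missed the threshold (adjusted p = 0.0537). That value passed in 9 of the 16 alternatives, among them median centring (0.16, adjusted p = 0.0237) and the replicate block (adjusted p = 0.0285).

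For Prdx1, Prdx2 and Gpx4 the array holds a pair of probe sets under the same symbol, and these did not always agree. Prdx1 and Prdx2 are peroxiredoxins, which reduce hydrogen peroxide through thioredoxin. On the brighter Prdx2 probe set the signals were 12.67 and 12.83 in combined, 12.85 and 12.89 in HO1 knockout and 12.49 and 12.58 in HO2 knockdown, against 12.76 and 12.87 in control. On the dimmer one they were 9.77 and 9.80 in combined, 10.01 and 10.03 in HO1 knockout and 9.76 and 9.85 in HO2 knockdown, against 9.98 and 10.09 in control. Both probe sets gave a fall in HO2 knockdown, of -0.28 (SE 0.054, adjusted p = 0.000769) and -0.24 (adjusted p = 0.0103). In combined against HO2 knockdown they disagreed, with 0.22 (adjusted p = 0.00598) on the brighter and -0.021 (adjusted p = 0.824) on the dimmer, so no direction is given there. Prdx1 was not called on its brighter probe set, and on the dimmer one it was -0.19 in combined against control (adjusted p = 0.0364) and -0.20 in combined against HO1 knockout (adjusted p = 0.031). The dimmer Prdx2 probe set was also lower in combined, at -0.26 against control (adjusted p = 0.00588) and -0.24 against HO1 knockout (adjusted p = 0.0127), where the brighter gave -0.064 and -0.12 and did not pass. The mean of both Prdx2 probe sets passed in combined against control as well (-0.16, adjusted p = 0.0394). Gpx4 was not called on either. Copies of these genes that share sequence could contribute to 1 or both probe sets, and this was not tested.

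Of the pentose phosphate pathway, whose oxidative branch makes NADPH, Pgd and Taldo1 were lower with HO2 shRNA and Tkt was not called. Of the 3 analysed, 0 rose and 2 fell in combined, none was called in HO1 knockout, and 0 rose and 2 fell in HO2 knockdown. In these comparisons 29.9%, 12.8% and 33.2% of all genes were called. Taldo1, transaldolase of the non-oxidative branch, had 10.24 and 10.10 in combined, 10.58 and 10.48 in HO1 knockout and 10.07 and 10.12 in HO2 knockdown, against 10.71 and 10.68 in control. The HO2 shRNA arrays lay below all scrambled arrays, with log2 fold changes against control of -0.52 in combined (SE 0.063, adjusted p = 7.34e-06) and -0.60 in HO2 knockdown (SE 0.063, adjusted p = 2e-06). Pgd, the phosphogluconate dehydrogenase of the NADPH-making branch, had 12.41 and 12.39 in combined, 12.64 and 12.51 in HO1 knockout and 12.46 and 12.43 in HO2 knockdown, against 12.68 and 12.75 in control. It fell to log2 fold changes of -0.31 in combined (SE 0.047, adjusted p = 6.93e-05) and -0.27 in HO2 knockdown (SE 0.047, adjusted p = 0.000287). Tkt, transketolase of the non-oxidative branch, had -0.12 in HO2 knockdown (95% interval -0.25 to 0.02). G6pdx, the entry enzyme of the pathway, was not analysed here.

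Among the enzymes that remove superoxide and peroxides, Gpx3 rose and the superoxide dismutase genes Sod1 and Sod2 fell with HO2 shRNA in HO1+/+ cells. Of the 8 analysed, 2 were higher and 1 lower in combined. In HO1 knockout 1 was higher and 0 lower, and in HO2 knockdown 2 were higher and 2 lower. The shares called were 37.5%, 12.5% and 50%, where those of all genes were 29.9%, 12.8% and 33.2%. Gpx3, the secreted glutathione peroxidase, had 12.54 and 12.58 in combined, 12.08 and 12.20 in HO1 knockout and 12.83 and 12.82 in HO2 knockdown, against 11.50 and 11.44 in control. No 2 groups overlapped. Its rise on the linear scale was 2.13-fold in combined, 1.59-fold in HO1 knockout and 2.55-fold in HO2 knockdown. On the log2 scale these were 1.09 (SE 0.047, adjusted p = 3.54e-11), 0.67 (adjusted p = 3.63e-08) and 1.35 (adjusted p = 8.15e-12), and they passed in each of the 16 alternatives. Beside this, the hepatocyte identity markers had median log2 fold changes of 1.11 in combined, 0.16 in HO1 knockout and 0.98 in HO2 knockdown, and their part in the rise was not tested.

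Sod1, the cytosolic superoxide dismutase, was low in HO2 knockdown and not in combined. It had 12.38 and 12.36 in combined, 12.35 and 12.40 in HO1 knockout and 11.92 and 12.03 in HO2 knockdown, against 12.50 and 12.45 in control. Both HO2 knockdown arrays lay below the 6 others. Its log2 fold change in HO2 knockdown was -0.50 (SE 0.046, adjusted p = 4.75e-07), while -0.11 in combined (adjusted p = 0.1) and -0.10 in HO1 knockout (adjusted p = 0.184) did not pass. Sod2, the mitochondrial enzyme and also a target of NF-kB, had 11.93 and 11.91 in combined, 12.51 and 12.39 in HO1 knockout and 11.87 and 11.81 in HO2 knockdown, against 12.33 and 12.34 in control. The 4 HO2 shRNA arrays lay below the 4 scrambled ones. Sod2 fell to log2 fold changes of -0.42 in combined (SE 0.047, adjusted p = 3.6e-06) and -0.50 in HO2 knockdown (SE 0.047, adjusted p = 6.78e-07), and its 0.11 in HO1 knockout did not pass.

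Sod3, the extracellular enzyme, was dim, with 7.49 and 7.29 in combined, 7.42 and 7.38 in HO1 knockout and 8.00 and 7.82 in HO2 knockdown, against 7.56 and 7.35 in control. Array medians over all probe sets were 7.61 to 7.70. Its rise of 0.45 in HO2 knockdown (SE 0.11, adjusted p = 0.00442) did not pass without HO2 knockdown replicate 1 (0.37, adjusted p = 0.0768). Gpx1, the main intracellular glutathione peroxidase, had 13.08 and 13.09 in combined, 12.99 and 12.92 in HO1 knockout and 12.96 and 13.01 in HO2 knockdown, against 12.82 and 12.95 in control. It was 0.20 higher in combined (SE 0.046, adjusted p = 0.00302), and without control replicate 1 it was 0.13 and did not pass (adjusted p = 0.0528). Cat, catalase, was not called against control, with -0.060 in combined, -0.0022 in HO1 knockout and 0.094 in HO2 knockdown. Gpx2, better known from the gut, ranged from 6.57 to 7.03 over the 8 arrays and was not called.

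**Figure D3:**
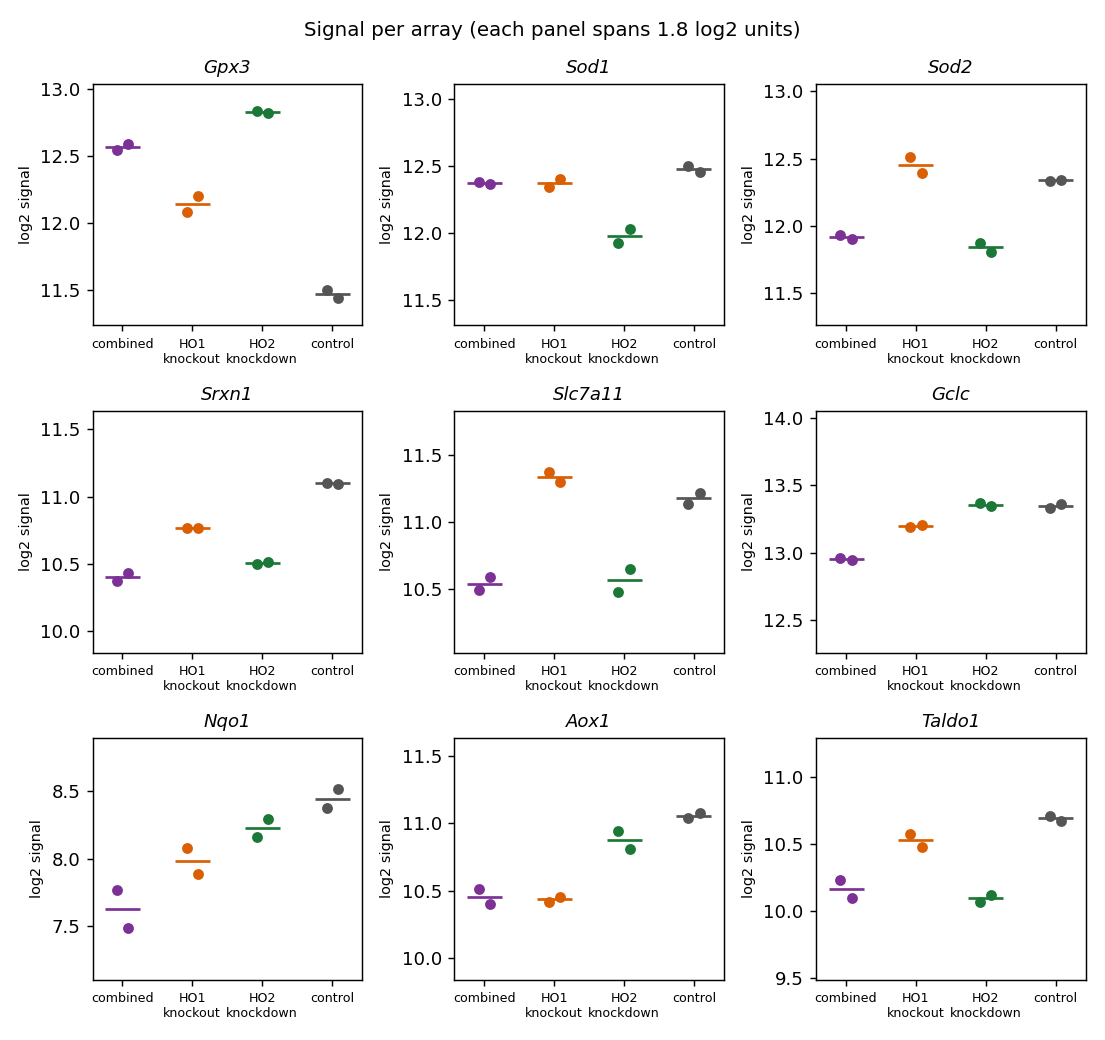
Log2 signal of 9 genes on each array, with points for single arrays and a line at the mean of the 2 arrays of each group, for combined, HO1 knockout, HO2 knockdown and control. Each panel spans the same range of log2 units, so the 1.35 rise of Gpx3 in HO2 knockdown can be set beside the 0.34 fall of Srxn1 in HO1 knockout.

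Of the 6 detoxification genes 1 was higher and 4 were lower in combined. In HO1 knockout 0 were higher and 3 lower, and in HO2 knockdown 2 were higher and 3 lower. The shares called were 83.3%, 50% and 83.3%, where those of all genes were 29.9%, 12.8% and 33.2%. Nqo1, quinone reductase and a classical NRF2 target, had 7.77 and 7.48 in combined, 8.08 and 7.89 in HO1 knockout and 8.16 and 8.30 in HO2 knockdown, against 8.38 and 8.52 in control. The combined arrays were the lowest, and all 6 arrays of the perturbed groups lay below control. Its log2 fold change was -0.82 in combined (SE 0.11, adjusted p = 2.39e-05) and -0.46 in HO1 knockout (SE 0.11, adjusted p = 0.00954), while -0.22 in HO2 knockdown did not pass (adjusted p = 0.144). The HO1 knockout value was -0.39 without control replicate 2 (adjusted p = 0.0534) and -0.37 without HO1 knockout replicate 2 (adjusted p = 0.126), and did not pass in either. The combined value passed in each of the 16 alternatives. Nqo1 in combined lay near the array medians, so background limits how closely its fall can be sized.

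Aox1, aldehyde oxidase, was lower in HO1-/- cells whichever hairpin they received. It had 10.51 and 10.40 in combined, 10.41 and 10.46 in HO1 knockout and 10.95 and 10.81 in HO2 knockdown, against 11.04 and 11.07 in control. All 4 HO1-/- arrays lay below all 4 HO1+/+ arrays. The log2 fold change against control was -0.60 in combined (SE 0.061, adjusted p = 1.11e-06) and -0.62 in HO1 knockout (SE 0.061, adjusted p = 2e-06). In HO2 knockdown it was -0.18 (adjusted p = 0.0355), and it did not pass without control replicate 1 (-0.20, adjusted p = 0.0664), control replicate 2 (-0.16, adjusted p = 0.0984) or HO2 knockdown replicate 2 (-0.11, adjusted p = 0.293).

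Akr1b8, an aldo-keto reductase, went with the hairpin. It had 9.26 and 9.19 in combined, 10.00 and 9.89 in HO1 knockout and 9.12 and 9.40 in HO2 knockdown, against 9.82 and 9.87 in control. It fell to log2 fold changes of -0.62 in combined (SE 0.084, adjusted p = 2.63e-05) and -0.59 in HO2 knockdown (SE 0.084, adjusted p = 4.91e-05), and had 0.10 in HO1 knockout (adjusted p = 0.551). The carbonyl reductases Cbr1 and Cbr3, both on chromosome 16, did not move alike. Cbr1 had 10.13 and 10.22 in combined, 9.72 and 9.63 in HO1 knockout and 10.32 and 10.49 in HO2 knockdown, against 9.98 and 9.88 in control. It was 0.47 higher in HO2 knockdown (SE 0.071, adjusted p = 7.58e-05), and Cbr3 was lower there, at -0.33 (SE 0.10, adjusted p = 0.0235). The Cbr3 value did not pass without control replicate 2 (-0.24, adjusted p = 0.0915), without HO2 knockdown replicate 2 (-0.25, adjusted p = 0.197) or with arrays centred on medians (-0.27, adjusted p = 0.0607).

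Cbr1 was also called in the other groups, with less support. Its 0.24 in combined (adjusted p = 0.0166) did not pass without control replicate 2 (0.19, adjusted p = 0.107) or combined replicate 2 (0.20, adjusted p = 0.163). Its -0.25 in HO1 knockout (adjusted p = 0.0264) did not pass without control replicate 1 (-0.21, adjusted p = 0.118), HO1 knockout replicate 1 (-0.30, adjusted p = 0.0527) or HO1 knockout replicate 2 (-0.21, adjusted p = 0.194). Cbr3 was also dim, at 7.22 and 7.33 in combined, 7.40 and 7.34 in HO1 knockout and 7.41 and 7.25 in HO2 knockdown, against 7.57 and 7.75 in control. Its -0.38 in combined (adjusted p = 0.0106) did not pass without control replicate 2 (-0.29, adjusted p = 0.0647) or combined replicate 1 (-0.32, adjusted p = 0.112). Ephx1, microsomal epoxide hydrolase, had 12.55 and 12.56 in combined, 12.51 and 12.56 in HO1 knockout and 12.73 and 12.75 in HO2 knockdown, against 12.44 and 12.51 in control. It rose by 0.26 in HO2 knockdown (SE 0.041, adjusted p = 0.000101).

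The HO2 shRNA effect was then set side by side in the 2 genotypes, which use separate arrays. In HO1-/- cells, combined against HO1 knockout, 15 of 32 genes were called, 6 higher and 9 lower, where 23.0% of all genes were called (10.2% higher and 12.8% lower). With a further quantile normalization the split was 4 higher and 10 lower, while 46.7% of all calls were higher, against 44.3% as deposited. Of the 16 called in HO1+/+ cells and the 15 called in HO1-/- cells, 9 were called in both, 3 higher in both and 6 lower in both, and 0 went opposite ways. The 9 are 56.2% of the first list and 60% of the second. Over all genes, 2931 were called in the same direction in both, 44.3% of the calls in HO1+/+ cells and 63.9% of those in HO1-/- cells, and 169 went opposite ways. The 6 lower in both were Slc7a11, Srxn1, Pgd, Taldo1, Sod2 and Akr1b8, and the 3 higher in both were Gss, Gpx3 and Cbr1. In HO1-/- cells Slc7a11 was at -0.80 (SE 0.064, adjusted p = 1.45e-07), Akr1b8 at -0.72 (SE 0.084, adjusted p = 7.97e-06) and Sod2 at -0.53 (SE 0.047, adjusted p = 4.24e-07). Among the 15 calls in HO1-/- cells, 7 did not pass in every alternative. Those of Gss (0.17, adjusted p = 0.0483) and Gpx1 (0.13, adjusted p = 0.0498) lay at the threshold. The Gss call was lost without any 1 of the combined, HO1 knockout or HO2 knockdown arrays (adjusted p from 0.0554 to 0.277). The Gpx1 call was lost without either combined array, either HO2 knockdown array or HO1 knockout replicate 2 (adjusted p from 0.0603 to 0.284). Pgd was at -0.18 (adjusted p = 0.0113), and lost the call without HO1 knockout replicate 1 (-0.11, adjusted p = 0.164) or either combined array (adjusted p = 0.0515 and 0.0888). Txnrd1, at 0.17 (adjusted p = 0.0352), lost it without any 1 of the 4 HO1-/- arrays (adjusted p from 0.0631 to 0.195). Gclm, at 0.17 (adjusted p = 0.0131), lost it without HO1 knockout replicate 1 (0.14, adjusted p = 0.102) or combined replicate 2 (0.12, adjusted p = 0.193). Nqo1, at -0.36 (adjusted p = 0.0269), lost it without HO1 knockout replicate 1 (-0.26, adjusted p = 0.252) or combined replicate 2 (-0.21, adjusted p = 0.35).

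The difference between these effects, the interaction, was called for 4 of 32 genes, 1 higher and 3 lower, where 12.2% of all genes were called (4.67% higher and 7.57% lower). With a further quantile normalization 11 were called, 7 higher and 4 lower. Over all genes 2167 were then called, against 2442 as deposited. As deposited, the share of these genes with a called interaction, 12.5%, was close to that of all genes. For Gpx3 the HO2 shRNA raised the signal by 0.42 in HO1-/- cells and by 1.35 in HO1+/+ cells, and the difference was -0.93 (SE 0.067, adjusted p = 5.56e-07). Sod1 was at -0.0038 in HO1-/- cells and at -0.50 in HO1+/+ cells, a difference of 0.50 (SE 0.065, adjusted p = 0.000162). Gclc was at -0.24 in HO1-/- cells and at 0.0073 in HO1+/+ cells, a difference of -0.25 (SE 0.050, adjusted p = 0.00392). Ephx1 was at 0.021 in HO1-/- cells and at 0.26 in HO1+/+ cells, a difference of -0.24 (SE 0.058, adjusted p = 0.0124). Without the mean-variance trend neither the Gclc nor the Ephx1 difference passed (adjusted p = 0.105 and 0.123). With a further quantile normalization the Ephx1 difference was -0.16 and did not pass (adjusted p = 0.0916). The Ephx1 difference did not pass without control replicate 1 (-0.21, adjusted p = 0.0542) or combined replicate 1 (-0.24, adjusted p = 0.055). Less Hmox2 was lost in HO1-/- cells, where the hairpin changed it by -2.30, than in HO1+/+ cells, where it changed it by -3.14 (difference 0.84, SE 0.092, adjusted p = 3.86e-05). Its part in these differences was not tested.

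**Figure D4:**
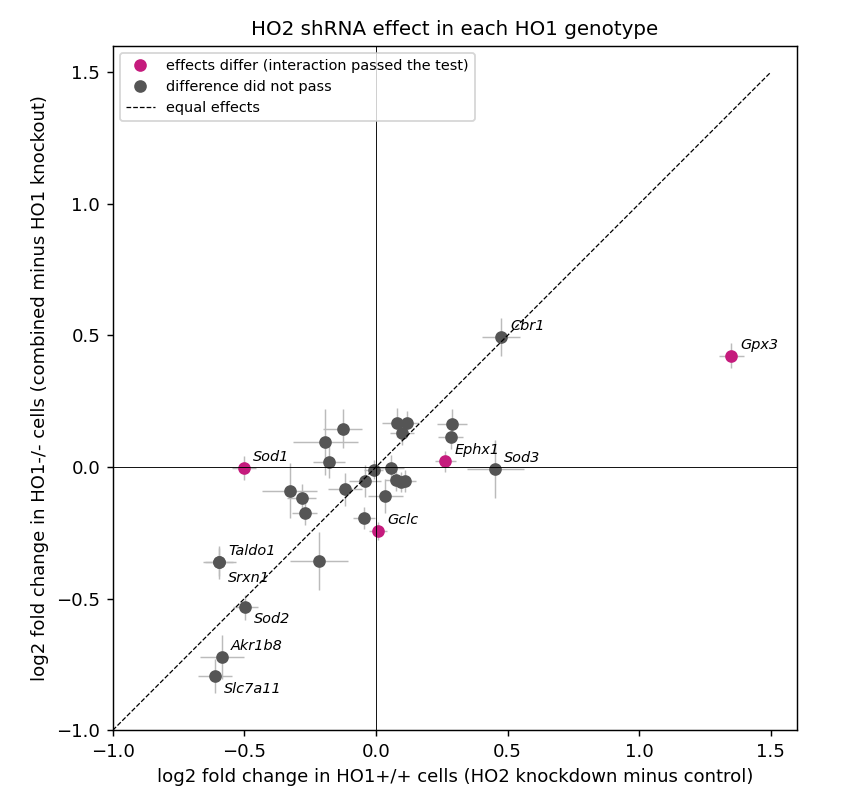
Log2 fold change with HO2 shRNA in HO1-/- cells (vertical, combined minus HO1 knockout) against that in HO1+/+ cells (horizontal, HO2 knockdown minus control) for the 32 genes, with bars of 1 standard error and the dashed line of equal effects. Gpx3, Sod1, Gclc and Ephx1, for which the interaction passed the test, are coloured, and Slc7a11, Akr1b8 and Sod2 sit at the lower left in both genotypes.

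The HO1 genotype effect was also read under each hairpin. Under HO2 shRNA, combined against HO2 knockdown, 14 of 32 genes were called, 2 higher and 12 lower, where 34.0% of all genes were called (13.0% higher and 21.0% lower). The 2 higher were Sod1 and Prdx2, and Prdx2 rests on its brighter probe set, as its dimmer one gave -0.021. On the mean of all probe sets 13 were called, 1 of them higher. With a further quantile normalization the split was 5 higher and 11 lower, while 42% of all calls were higher, against 38.2% as deposited. Of the 9 genes called under scrambled shRNA, 7 were lower under both hairpins, namely Sqstm1, Osgin1, Gclc, Txnrd1, Nqo1, Cbr1 and Aox1. These are 77.8% of the calls under scrambled shRNA and 50% of the 14 under HO2 shRNA. Over all genes, the 1526 called in the same direction under both hairpins were 59.7% of the calls under scrambled shRNA and 22.5% of those under HO2 shRNA. Gpx3 was higher in HO1-/- cells under scrambled shRNA (0.67) and lower under HO2 shRNA (-0.26, SE 0.047, adjusted p = 0.00058). Srxn1 passed under scrambled shRNA (-0.34) and not under HO2 shRNA (-0.10, adjusted p = 0.151), and the difference between these values was 0.24 (adjusted p = 0.05), which did not pass. Under HO2 shRNA Gclc was at -0.40 (SE 0.035, adjusted p = 4.13e-07), Aox1 at -0.42 (SE 0.061, adjusted p = 7.8e-05) and Nqo1 at -0.60 (SE 0.11, adjusted p = 0.000623). Sod1 was 0.39 higher (SE 0.046, adjusted p = 1.07e-05) and Sod3 lower, at -0.52 (SE 0.11, adjusted p = 0.0019). Cat was at -0.15 (adjusted p = 0.00472), and without HO2 knockdown replicate 2 it was -0.12 and did not pass (adjusted p = 0.0596). Txnrd1 (-0.18, adjusted p = 0.0167) lost its call without any 1 of the 4 arrays compared (adjusted p from 0.0536 to 0.114). Cbr1 (-0.23, adjusted p = 0.019) lost its call without HO2 knockdown replicate 2 (-0.15, adjusted p = 0.203) or combined replicate 1 (-0.19, adjusted p = 0.154). Macrophage markers were higher in HO1-/- cells under both hairpins, with medians of 2.36 under HO2 shRNA and 2.20 under scrambled shRNA, and their part in these values was not tested.

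Other genes of the pathway were read beside these, from lists chosen with earlier results of these data known. Of 16 further NRF2 regulators, 5 were higher and 2 lower in combined against control. In HO1 knockout 1 was higher and 3 lower, and in HO2 knockdown 8 were higher and 2 lower. These are 43.8%, 25% and 62.5% called, where 29.9%, 12.8% and 33.2% of all genes were called. Whether the splits of these further lists hold under other scalings was not tested. Btrc, part of a ubiquitin ligase that marks NRF2 for degradation, was 0.46 higher in HO2 knockdown (SE 0.058, adjusted p = 1.52e-05). Rbx1, a subunit shared with the KEAP1 ligase, was lower there, at -0.34 (SE 0.056, adjusted p = 0.000154). Mafk, another small MAF partner, was at -0.24 in HO1 knockout (SE 0.060, adjusted p = 0.0153).

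Of 25 further NRF2 targets analysed out of 29 listed, 8 were higher and 7 lower in combined. In HO1 knockout 6 were higher and 5 lower, and in HO2 knockdown 12 were higher and 4 lower. The shares called were 60%, 44% and 64%, where those of all genes were 29.9%, 12.8% and 33.2%. Hmox1 is in this list and among the higher genes in each group. Abcc1, which exports glutathione conjugates, had 8.96 ± 0.055 in combined, 10.15 ± 0.0054 in HO1 knockout and 8.93 ± 0.10 in HO2 knockdown, against 10.37 ± 0.039 in control (SD, n = 2 each). The 4 HO2 shRNA arrays lay below the 4 scrambled ones, with log2 fold changes of -1.41 in combined (SE 0.070, adjusted p = 1.96e-10) and -1.44 in HO2 knockdown (SE 0.070, adjusted p = 2.91e-10). Blvrb, biliverdin reductase B, fell to log2 fold changes of -0.76 in combined (SE 0.051, adjusted p = 9.79e-09), -0.34 in HO1 knockout (adjusted p = 0.000254) and -0.61 in HO2 knockdown (adjusted p = 1.78e-07). The glutathione transferase gene Gstm1 rose by 0.47 in combined, 0.34 in HO1 knockout and 0.54 in HO2 knockdown (adjusted p = 2.04e-07, 1.93e-05 and 5.25e-08).

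Of 28 further redox enzymes analysed out of 29 listed, 9 were higher and 7 lower in combined. In HO1 knockout 4 were higher and 5 lower, and in HO2 knockdown 8 were higher and 6 lower. The shares called were 57.1%, 32.1% and 50%, where those of all genes were 29.9%, 12.8% and 33.2%. Txnip, which binds and inhibits thioredoxin, had 12.00 and 11.95 in combined, 11.23 and 11.15 in HO1 knockout and 12.14 and 12.10 in HO2 knockdown, against 10.78 and 10.85 in control. No perturbed array reached down to control, and the log2 fold changes were 1.16 in combined (SE 0.049, adjusted p = 2.62e-11), 0.38 in HO1 knockout (adjusted p = 4.95e-05) and 1.31 in HO2 knockdown (adjusted p = 1.66e-11). Sesn2, a stress-induced sestrin, was 0.81 higher in HO2 knockdown (SE 0.065, adjusted p = 1.07e-07) and 0.27 higher in combined (adjusted p = 0.00514). Gpx8, an endoplasmic reticulum peroxidase, fell to log2 fold changes of -0.64 in combined, -0.34 in HO1 knockout and -0.67 in HO2 knockdown (SE 0.061 each, adjusted p = 5.35e-07, 0.000908 and 3.96e-07). Msrb1, a methionine sulfoxide reductase, rose by 0.56 in combined, 0.21 in HO1 knockout and 0.54 in HO2 knockdown (adjusted p = 1.75e-07, 0.00658 and 3.33e-07).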

How the data were processed

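Each deposited value is the log2 signal of a probe set, made by the authors before deposit. The tools named, per the submitters' processing notes, are RMA, affy and R 2.15.0. Neither the chip definition file nor the genome build is given in the sources used here. RNA input was 300 ng an array, per the labels' protocols.

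Of 34760 probe sets, 21640 carried exactly 1 gene symbol in the platform annotation, and the brightest per gene was kept, which gave 19937 genes. Values were fitted with limma 3.58.1 (R 4.3.3) as 4 group means over 8 arrays, with 4 residual and 11.2 prior degrees of freedom and a mean-variance trend. P-values are two-sided, were corrected across the 19937 genes by the Benjamini-Hochberg method and called under 0.05. The fit was tested on simulated data. The genes and lists were chosen with earlier results of these data known. Given per array are, in each role, the 2 genes with the smallest p in HO1 knockout, in HO2 knockdown and in the interaction. Nfe2l2, Gclm, Sod3, Gpx1 and Cbr3 were added to these after their values were seen. From each further pathway list the 3 genes with the smallest p in HO1 knockout and in HO2 knockdown could be named, and the text names some of them. The number of arrays limits precision. Alternatives covered the variance model, array weights, scaling, dim genes, several probe sets per gene, a block for the replicate number, and fits without 1 array.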

Additional observations from a re-analysis of the deposited data

Results flagged for a closer look

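For 4 genes the HO2 shRNA effect differed between the genotypes by the test of the interaction in limma, taken as the effect in HO1-/- cells minus that in HO1+/+ cells. On the log2 scale the difference was -0.93 for Gpx3 (adjusted p = 5.56e-07) and 0.50 for Sod1 (adjusted p = 0.000162). It was -0.25 for Gclc (adjusted p = 0.00392) and -0.24 for Ephx1 (adjusted p = 0.0124). Only those of Gpx3 and Sod1 passed in all 16 alternatives. Without the mean-variance trend the Gclc and Ephx1 differences did not pass (adjusted p = 0.105 and 0.123). For Gpx3 all 8 arrays keep the order of their groups, so that the combined arrays lie above HO1 knockout and below HO2 knockdown.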

How the results depend on the processing

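Over the 192 values (32 genes in 6 comparisons) and 16 alternatives fixed for these comparisons, 2912 of 3072 refits kept the side of the threshold and any called direction, 93 lost a call, 67 gained one and 0 reversed. Of the 74 calls, 48 passed in all 16 alternatives. Without the mean-variance trend the number of genes called was 5 instead of 9 for HO1 knockout against control, 9 instead of 15 for combined against HO1 knockout, 9 instead of 14 for combined against HO2 knockdown, and 2 instead of 4 for the interaction. Calls over all genes fell too, to 1801 from 2557, 3858 from 4587, 6184 from 6775 and 1359 from 2442 in the same order. A further quantile normalization gave 11 for the interaction, 7 of them higher, while calls over all genes were 2167 instead of 2442. The causes were not tested. Leaving out 1 array gave 7 to 9 for HO1 knockout, 14 to 17 for HO2 knockdown and 13 to 16 for combined, each against control, 10 to 15 for combined against HO1 knockout, 11 to 14 for combined against HO2 knockdown and 3 to 6 for the interaction. The dimmer probe sets, an alternative chosen after seeing the data, reversed 2 values, to -0.19 for Prdx1 in combined against control and to -0.021 for Prdx2 in combined against HO2 knockdown. The replicate numbers share no stated animal or day, and same-numbered deviations correlated between -0.261 and 0.122 across pairs of groups. With the replicate number as a block the counts were 9 for HO1 knockout, 18 for HO2 knockdown and 16 for combined, each against control, 15 and 15 for combined against HO1 knockout and HO2 knockdown, and 4 for the interaction. Over all genes they were 2501, 6431, 5871, 4491, 6564 and 2327, against 2557, 6620, 5964, 4587, 6775 and 2442 without the block. Crossing the control numbers, tried after seeing these correlations, gave 10, 16, 16, 14, 14 and 5 in the same order. Over all genes it gave 2875, 7139, 6309, 4946, 7394 and 2953. Centring arrays on their medians shifted all genes by at most 0.064 on the log2 scale and split the calls in HO2 knockdown into 11 higher and 8 lower, against 6 and 10 as deposited. Over all genes, 62.9% of the calls in HO2 knockdown were then higher, against 49.7% as deposited. For dim genes such as Gpx2, Sod3, Cbr3 and Nqo1, signal near the array median limits what can be detected.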
